A study of Mus musculus with 2 samples.

Results

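The hyaluronan matrix of cumulus expansion was described by 9 genes: the hyaluronan synthases Has1, Has2 and Has3, the cross-linking proteins Tnfaip6 and Ptx3, the proteoglycan Vcan, the link protein Hapln1, and the hyaluronan receptors Cd44 and Hmmr. All 28 probe sets on the array that the platform annotation assigns to one of these symbols alone were taken, of 45037 probe sets other than controls. RNA came from ovaries of progesterone receptor (PR) knockout mice and of wild-type mice, with 1 array per genotype. Both genotypes were immature C57BL/6 mice of 24 to 28 days. Both received 5 IU of pregnant mare serum gonadotropin, which grows follicles, and 48 h later 5 IU of human chorionic gonadotropin (hCG), which triggers ovulation, and ovaries were taken 11 h after hCG. The disrupted part of the receptor gene Pgr and the number of mice behind each RNA sample are not stated in the sources at hand. With single arrays the spread between animals is unknown and no test was possible, so each value is one measurement and no p-value is given.

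In an ovulating follicle the granulosa cells around the oocyte, the cumulus cells, spin out hyaluronan, a long unbranched sugar polymer, and the cell mass swells into a sticky gel. In the mouse Has2 is the main synthase of these cells. The protein TSG-6 (gene Tnfaip6) moves heavy chains of inter-alpha-trypsin inhibitor from serum onto hyaluronan, and pentraxin 3 (Ptx3) multimers tie these chains together. Versican (Vcan) and link proteins bind hyaluronan directly, CD44 anchors it at the cell surface, and Hmmr encodes a hyaluronan-binding protein that also works at the mitotic spindle. The PR is a progesterone-activated transcription factor that granulosa cells make after the ovulatory surge, and mice without it do not ovulate.

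The matrix-building genes Has1, Has2, Tnfaip6, Ptx3 and Vcan had lower signals in the PR knockout ovary, while those of the surface receptor Cd44 differed less and those of Hmmr showed no common direction. A signal is an intensity in arbitrary units on a linear scale. The median of each array over probe sets other than controls, 38.0 in the knockout and 36.2 in the wild type, served as the floor of measurable signal. Of the 9 genes, 5 lay above the floor on both arrays (Tnfaip6, Ptx3, Vcan, Cd44 and Hmmr), 2 only on the wild-type array (Has1 and Has2) and 2 on neither (Has3 and Hapln1). Of the 5 genes measured on both arrays, 3 were at least 2-fold lower in the knockout, Tnfaip6, Ptx3 and Vcan, against 1.57% of the 10633 genes measured on both arrays. None of the 5 was at least 2-fold higher, against 0.978% of those genes. Has1 and Has2 were also at least 2-fold lower, but they counted as measured through the wild-type array, so a lower knockout value was built into their selection. Among the 683 genes measured on 1 array only, whichever array that was, 4.1% were at least 2-fold lower. Genes measured on the knockout array alone cannot be lower there. The share among genes measured on the wild-type array alone, like Has1 and Has2, is therefore larger than this and was not computed. Because the RNA is from whole ovaries, fewer cells of a type and less RNA per cell cannot be told apart.

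**Figure D1:**
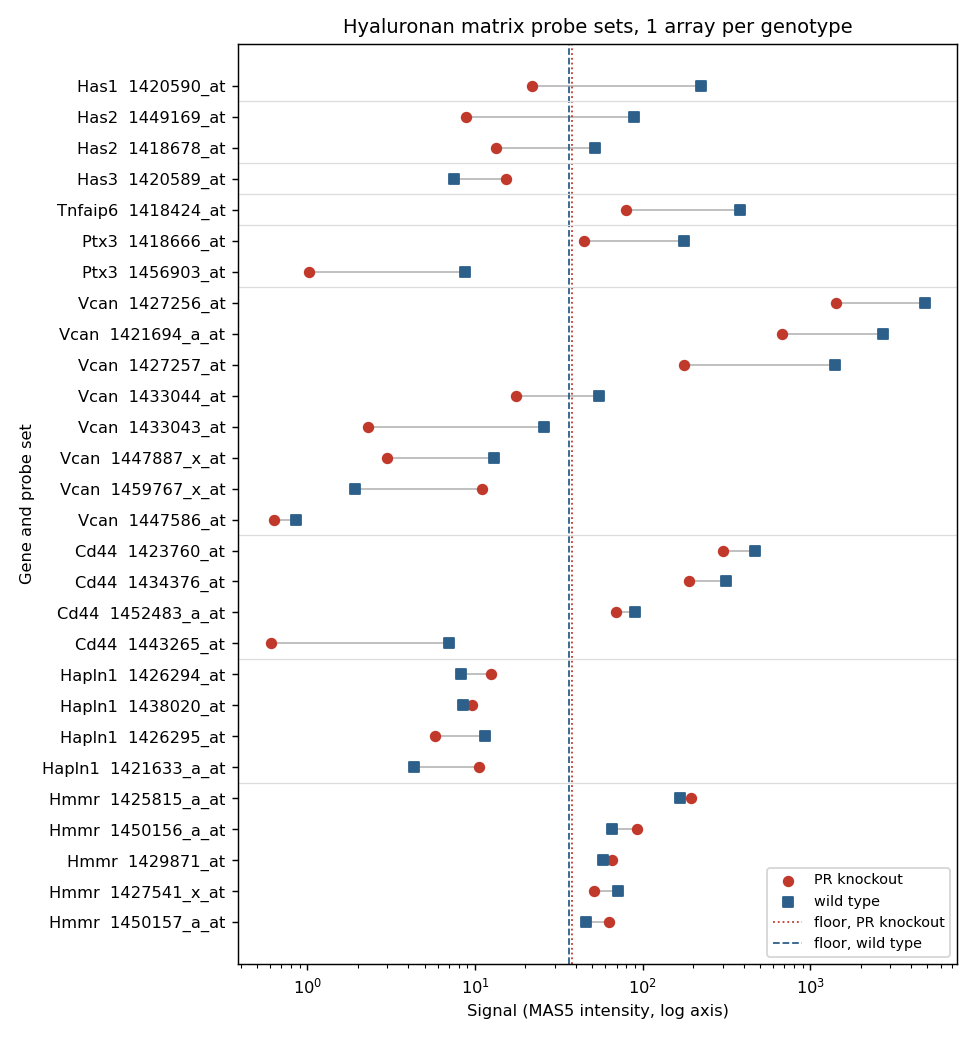
Signals of the 28 hyaluronan matrix probe sets (MAS5 intensity, log axis) on the PR knockout array (red circles) and the wild-type array (blue squares), 1 array each, with dotted and dashed lines at the floors of 38.0 and 36.2. The red circles of Has1, Has2, Tnfaip6, Ptx3 and of the measured Vcan probe sets lie left of the blue squares, and the Hapln1 and Has3 probe sets lie left of both floors.

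The promoters of the at least 2-fold lower genes are shown where a sequence was held. They include Has1, whose direction was built into its selection. RefSeq promoter sequences (build GRCm38.p6) were held for 7 of the 9 genes, all but Has2 and Has3. The 250 bases before the annotated start follow for Has1, Tnfaip6, Ptx3 and Vcan, read along the gene from 5′ to 3′, with capitals marking letters that match a searched motif.
Has1 (chr17:17855189-17855438, minus strand): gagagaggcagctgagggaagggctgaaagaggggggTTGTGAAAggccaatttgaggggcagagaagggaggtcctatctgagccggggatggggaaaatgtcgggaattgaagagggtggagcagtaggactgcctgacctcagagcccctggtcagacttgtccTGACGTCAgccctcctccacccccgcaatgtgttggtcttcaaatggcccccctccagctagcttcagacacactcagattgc
Tnfaip6 (chr2:52037863-52038112, plus strand): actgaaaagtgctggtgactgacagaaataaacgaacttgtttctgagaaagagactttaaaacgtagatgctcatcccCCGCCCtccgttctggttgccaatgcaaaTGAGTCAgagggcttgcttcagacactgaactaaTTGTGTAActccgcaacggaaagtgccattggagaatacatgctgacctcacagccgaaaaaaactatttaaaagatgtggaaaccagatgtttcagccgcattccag
Ptx3 (chr3:66219637-66219886, plus strand): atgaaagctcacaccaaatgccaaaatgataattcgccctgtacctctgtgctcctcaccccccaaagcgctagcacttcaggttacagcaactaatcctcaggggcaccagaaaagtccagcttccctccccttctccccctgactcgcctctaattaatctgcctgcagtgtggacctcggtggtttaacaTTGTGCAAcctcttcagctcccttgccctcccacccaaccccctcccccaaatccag
Vcan (chr13:89742513-89742762, minus strand): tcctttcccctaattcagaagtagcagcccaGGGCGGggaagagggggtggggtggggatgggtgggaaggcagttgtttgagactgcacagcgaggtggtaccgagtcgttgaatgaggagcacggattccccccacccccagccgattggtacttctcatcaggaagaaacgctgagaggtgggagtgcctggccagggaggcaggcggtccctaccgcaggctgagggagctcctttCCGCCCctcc
The searched motifs were the cyclic AMP response element (CRE) TGACGTCA and its half-site TGACG, which lies inside it, AP-1 TGANTCA, the GC box GGGCGG, C/EBP TTNNGNAA, EGR GCGNGGGCG, RUNX TGTGGT, the half-site TGTTCT and the full palindrome bound by the progesterone and glucocorticoid receptors, the TATA box TATAAA, SMAD GTCTAGAC and the E-box CACGTG, on both strands. Has1 held the full CRE, starting 83 bases before the start, which 1.55% of 32841 mouse promoter windows of the same length hold. Tnfaip6 held an AP-1 match, TGAGTCA, starting 142 bases before the start, found in 6.75% of windows. C/EBP letters occurred in Has1 (TTGTGAAA, 213 bases before the start), Tnfaip6 (TTGTGTAA, 108 bases) and Ptx3 (TTGTGCAA, 57 bases), but also in Hapln1 (TTCCTGAA on the other strand, 140 bases), and in 36.9% of windows. Vcan held GC boxes starting 219 and 10 bases before the start, Tnfaip6 held 1 at 171 bases and Hmmr 1 at 93 bases, against 32.7% of windows. Hapln1 also held the RUNX letters, 160 bases before the start, found in 14% of windows, and the Cd44 window held no match. The receptor palindrome, its half-site, EGR, TATA, SMAD and E-box letters were absent from the windows of all 7 genes, which says only that these letters are not in these windows. The motifs were chosen with the promoters in view, so the shares of windows do not tell how unusual a match is. A match is a description of the letters and was not tested for binding.

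The synthase genes Has1 and Has2 were measurable only in the wild-type ovary, and Has3 in neither. The 1 probe set of Has1 gave a signal of 21.9 in the knockout ovary and 222 in the wild-type ovary. The knockout signal lay under the floor, so Has1 was at least 5.85-fold lower. Has2 was read by 2 probe sets. Probe set 1449169_at gave 8.87 in the knockout and 88.7 in the wild type, at least 2.34-fold lower, and 1418678_at gave 13.3 in the knockout and 51.7 in the wild type, at least 1.36-fold lower. Both Has2 probe sets were thus under the floor in the knockout and above it in the wild type, and the bounds are small because the wild-type signals lie not far above the floor. Has3, the third vertebrate synthase, gave 15.2 in the knockout and 7.49 in the wild type, under the floor on both arrays, so no direction can be read for it. With the floor raised to the 70th percentile of each array, Has2 and Has3 were not measured on either array and the log2 difference of Has1 was -0.80, under 2-fold.

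The cross-linking genes had lower signals in the knockout. Tnfaip6 gave 79.2 in the knockout ovary and 383 in the wild-type ovary, 4.84-fold lower, with both signals above the floor. Its log2 difference of -2.27 (knockout minus wild type) ranked 25 from the lowest of the 10633 genes measured on both arrays. Ptx3 gave 45.0 in the knockout and 177 in the wild type by 1418666_at, 3.94-fold lower, at rank 32. The knockout signal of Ptx3 was close to the floor. With the 70th-percentile floor its log2 difference was -0.47. The other Ptx3 probe set, 1456903_at, gave 1.03 in the knockout and 8.73 in the wild type, under the floor on both arrays. Tnfaip6 was represented by 1 probe set, so neither gene had a second measured probe set as a check.

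Versican was the member with the most probe sets, 8, and 3 of them were above the floor on both arrays. Probe set 1427256_at gave 1424 in the knockout ovary and 4822 in the wild-type ovary, 3.39-fold lower. Probe set 1421694_a_at gave 677 in the knockout and 2713 in the wild type, 4.01-fold lower. Probe set 1427257_at gave 177 in the knockout and 1401 in the wild type, 7.91-fold lower. All 3 lay at least 2-fold lower in the knockout, with a mean log2 difference of -2.25 ± 0.65 (SD over 3 probe sets of the same arrays). This SD was larger than the usual one. Over 4771 genes with several probe sets above the floor on both arrays, the root mean square SD within a gene was 0.25 on the log2 scale. It was 0.16 at mean signals over 500, but 1427257_at, the probe set farthest from the others, had a mean log2 signal just short of that range. From 100 to 500 it was 0.24. The probe sets 1427256_at and 1427257_at carry the same source transcript in the platform annotation and yet differed, with log2 differences of -1.76 and -2.98. The splice forms of versican that each probe set reads were not looked up here. Probe set 1433044_at gave 17.6 in the knockout and 55.1 in the wild type, at least 1.45-fold lower, and the other 4 were under the floor on both arrays. By the probe set that represents it, 1427256_at, Vcan ranked 42 from the lowest of 10633 genes.

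**Figure D2:**
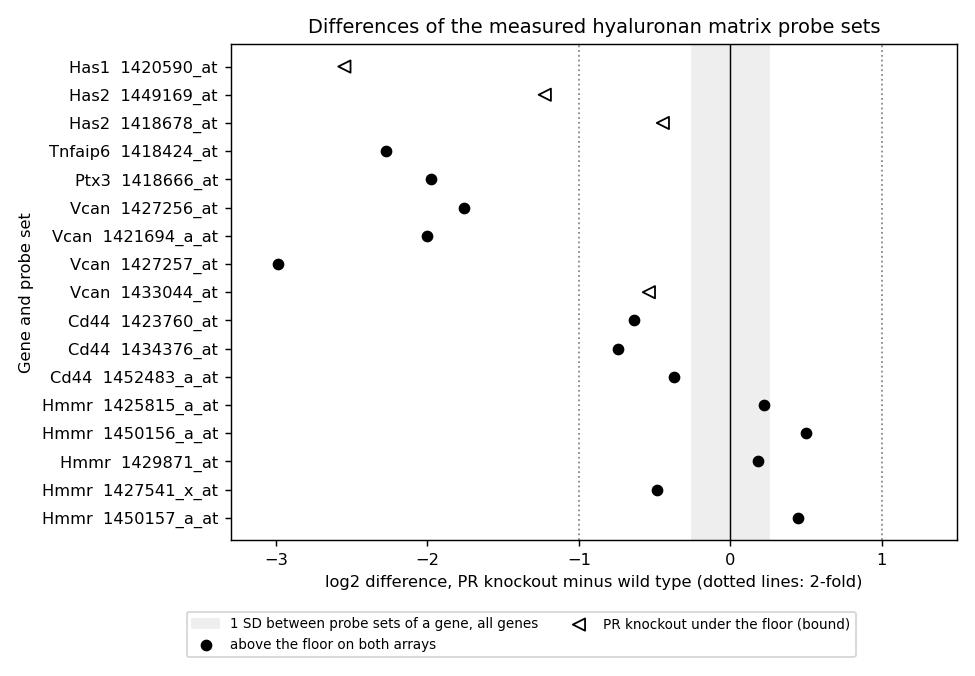
The log2 difference (PR knockout minus wild type) of each hyaluronan matrix probe set above the floor on at least 1 array, with filled circles where both arrays were above it and open triangles where the knockout signal was set to the floor, so that the value is a bound. The grey band is 1 within-gene SD over all genes, 0.25 on the log2 scale, and the Vcan, Tnfaip6, Ptx3 and Cd44 points lie to its left, while of the Hmmr points 1 lies to its left, 2 inside it and 2 to its right.

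The link protein gene Hapln1, whose product stabilises the binding of versican and related proteoglycans to hyaluronan, was not measurable on either array. Its 4 probe sets gave 12.4, 9.60, 5.75 and 10.5 in the knockout ovary, against 8.27, 8.53, 11.4 and 4.31 in the wild-type ovary, in the same order of probe sets. All lay under the floors, and the order of the genotypes differed among them. Hapln1 and Vcan are next to each other on chromosome 13 among protein-coding genes of the RefSeq table, so neighbouring genes for hyaluronan-binding proteins were above the floor in one case and under it in the other.

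The receptor gene Cd44 had moderately lower signals in the knockout. Its probe set 1423760_at gave 300.1 in the knockout ovary and 467 in the wild-type ovary, 1.56-fold lower. Probe set 1434376_at gave 188 in the knockout and 314 in the wild type, and 1452483_a_at gave 69.7 in the knockout and 90.4 in the wild type. The 3 log2 differences, from -0.74 to -0.38 with a mean of -0.58 ± 0.19 (SD), all had the same direction, and none reached 2-fold. Cd44 ranked 408 from the lowest of 10633 genes. Leukocytes also carry CD44, and of 8 leukocyte markers 4 were measured, 2 lower and 2 higher in the knockout, with a median log2 difference of 0.04 that was negative after each of the 3 rescalings. The signals of all 8 summed to 646 in the knockout and 568 in the wild type. Csf1r (0.45) and Adgre1 (0.26) were farthest from equality. Itgam, Cd3e, Cd79a and S100a8 were under the floor on both arrays. The part of leukocytes in the Cd44 difference was not tested.

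Hmmr was read by 5 probe sets, all above the floor on both arrays, which disagreed in direction. Probe set 1425815_a_at gave 195 in the knockout ovary and 167 in the wild-type ovary, 1.17-fold higher. Of the others, 3 were also higher in the knockout and 1427541_x_at was lower, with 51.1 in the knockout and 71.7 in the wild type. The log2 differences ran from -0.49 to 0.50, with a mean of 0.17 ± 0.39 (SD over 5 probe sets). The mean was smaller than the spread between probe sets of this gene, so no direction is given for Hmmr. Of 19 measured mitosis genes, 15 were higher and 4 lower in the knockout, 0 of them 2-fold apart, with a median log2 difference of 0.19. Of all genes measured on both arrays, 42.5% were lower, and their median was 0.05. After median centring the median of the mitosis genes was 0.12. The mitosis genes farthest from equality were the spindle genes Kif20a (0.61), Tpx2 (0.47) and Kif11 (0.44, but -0.03 with probe sets without a suffix) and the survivin gene Birc5 (0.45).

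**Figure D3:**
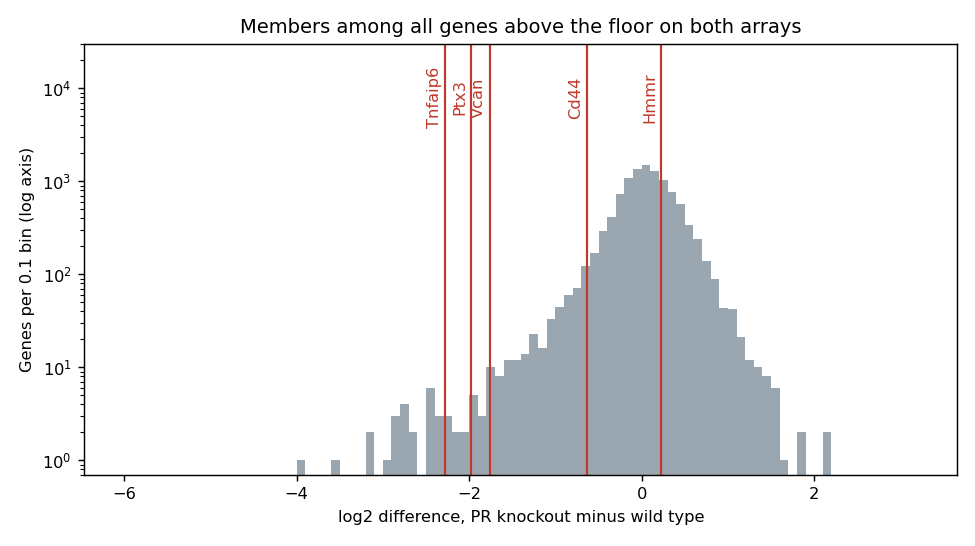
Distribution of the log2 difference (PR knockout minus wild type) over the 10633 genes above the floor on both arrays, as genes per bin of 0.1 on a log axis, with red lines at the 5 hyaluronan matrix genes measured on both arrays. Tnfaip6, Ptx3 and Vcan lie in the thin left tail, Cd44 on the left shoulder and Hmmr within the central peak.

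Set against all genes, the members spread widely. Over the 10633 genes measured on both arrays the median log2 difference was 0.05, with quartiles of -0.14 and 0.26, while over the 5 members measured on both arrays it was -1.76, the value of Vcan. Of all these genes 42.5% had any lower signal in the knockout. Counting also genes measured on 1 array, 195 of 11316 (1.72%) passed 2-fold towards lower signal in the knockout and 130 (1.15%) towards higher. This split was 225 and 92 after median centring, 214 and 93 after quantile normalization, and 230 and 87 after removal of the loess trend. Tnfaip6, Ptx3, Vcan and Cd44 kept their direction under these rescalings. The spread between probe sets of 1 gene was 0.31 on the log2 scale at mean signals under 100, 0.24 from 100 to 500 and 0.16 above 500, so it is smaller at the signals of the 3 Vcan probe sets than at those of Has2 or Ptx3. It leaves out the variation between animals. Pgr itself gave no check of the genotype labels, since its 3 probe sets gave 42.8, 3.64 and 21.1 in the knockout and 36.5, 2.97 and 1.03 in the wild type. The first lay just above the floor on both arrays and was slightly higher in the knockout, and the others lay under it.

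**Figure D4:**
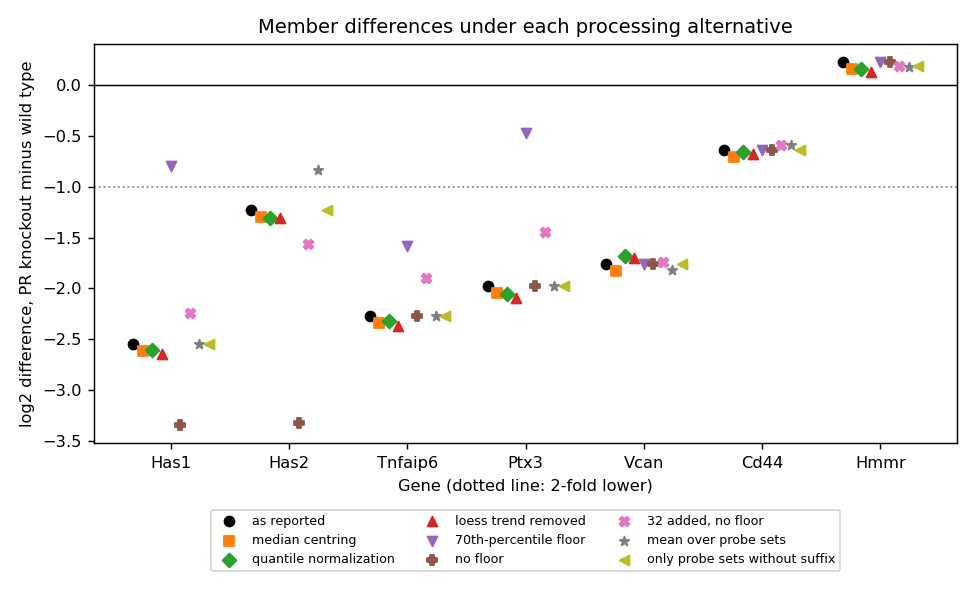
The log2 difference (PR knockout minus wild type) of each of the 7 measured hyaluronan matrix genes as reported (black circles) and under 8 processing alternatives (other symbols), with a dotted line at 2-fold lower. Vcan, Cd44 and Hmmr move by less than the within-gene SD of 0.25. Has1, Has2 and Ptx3, whose knockout signals are under or near the floor, range widely over the alternatives. Tnfaip6 moves from -2.27 to -1.59 with the 70th-percentile floor, at which Has2 has no value.

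Genes that supply hyaluronan with its sugars had slightly lower signals in the knockout, and Gfpt2 stood apart. Of 13 genes for UDP-sugar precursors, all measured on both arrays, 11 were lower and 2 higher, and 1 was at least 2-fold lower. Of all genes measured on both arrays, 42.5% were lower and 1.57% at least 2-fold lower. The median log2 difference of the 13 was -0.20, and that of all genes measured on both arrays 0.05. Gfpt2, one of the enzymes that commit glucose to amino sugars, gave 155 in the knockout ovary and 464 in the wild-type ovary and was the 1 gene of this list at least 2-fold apart, with a log2 difference of -1.59. Its relative Gfpt1 had a log2 difference of -0.28 by the probe set that represents it, and 0.40 by its other measured probe set. Ugdh, which makes the glucuronic acid donor, gave 930.1 in the knockout and 1368 in the wild type, a log2 difference of -0.56. Uap1, which makes the N-acetylglucosamine donor, was lower by its measured probe sets, from -0.67 to -0.41, while the salvage kinase gene Nagk was 0.29 higher.

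Proteases that cut versican were lower in 3 of 4 measured genes, against 42.5% of all genes measured on both arrays. The median log2 difference of the 4 was -1.22. It was -0.32 with no floor or with 32 added to each signal, when Adamts15 and Adamts20 enter the list. Adamts1 gave 585 in the knockout and 5199 in the wild type, 8.89-fold lower, and Adamts4 gave 230.1 in the knockout and 772 in the wild type, 3.36-fold lower. Thus the versican gene and 2 genes of its proteases were at least 2-fold lower on the same knockout array. Of all genes measured on both arrays, 1.57% were at least 2-fold lower. Adamts9 had log2 differences from -1.62 to -0.68 over 3 probe sets, and Adamts5 was 0.38 higher. Adamts15 and Adamts20 were under the floor on both arrays.

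Among the signals that act upstream of cumulus expansion, 12 of the 14 listed genes had a probe set and 11 were measured on both arrays, 5 lower and 6 higher in the knockout. Their median log2 difference was 0.15, and -0.07 with Ptgs2 at its bound, so no direction is given for the list. The EGF-like ligand gene Ereg gave 158 in the knockout and 2367 in the wild type, a log2 difference of -3.91. Ptgs2, which makes the prostaglandin precursor, gave 30.6 in the knockout, under the floor, and 1871 in the wild type. The ligand gene Btc (-0.95) and the prostaglandin E receptor gene Ptger4 (-0.80) were lower by less than 2-fold. Btc passed 2-fold after each of the 3 rescalings, from -1.05 to -1.02, and was at -0.61 with 32 added to each signal. The oocyte factors Gdf9 and Bmp15, which enable cumulus cells to expand, had log2 differences of 0.15 and 0.25.

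Serum-derived and degrading components were measured in part. Of the 6 inter-alpha-trypsin inhibitor genes, 2 were measured. Itih5 gave 1744 in the knockout and 1048 in the wild type, with log2 differences from 0.72 to 1.04 over 3 probe sets, and Itih2 was close to equal at 72.7 in the knockout and 72.0 in the wild type. Itih1, Itih3, Itih4 and Ambp, made mainly in the liver, were under the floor on both arrays. Of 10 hyaluronan-degrading genes with a probe set, 5 were measured, 4 higher and 1 lower in the knockout, with a median log2 difference of 0.34, which was 0.04 with no floor and 0.08 with 32 added to each signal. The higher ones were Hexa (0.51), the hyaluronidase gene Hyal2 (0.41), Gusb (0.34) and Cemip (0.17, with probe sets from -0.21 to 0.69). The lower one was Cemip2 (-0.12, with measured probe sets from -0.62 to -0.12).

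Other hyaluronan receptors showed no common direction. Of 7 measured on both arrays, 3 were lower and 4 higher in the knockout, 0 of them 2-fold apart. The median over the 8 measured genes, 0.03, was negative under all of the 3 rescalings. Lyve1, the hyaluronan receptor of lymphatic vessels, gave 115 in the knockout and 182 in the wild type, with log2 differences of -1.01 and -0.67 by its probe sets. The scavenger receptor genes Stab1 (0.26) and Stab2 (0.39) were higher, and Tlr4 was above the floor on the wild-type array only, at 35.4 in the knockout and 42.8 in the wild type. Of the other large hyaluronan-binding proteoglycans, Bcan was measured (0.13), while Acan and Ncan and the link protein genes Hapln2, Hapln3 and Hapln4 were under the floor on both arrays. Of the 6 measured genes for adaptors and partners of CD44, 3 were lower and 3 higher, with a median of -0.04. Among them, the membrane linker gene Ezr had a log2 difference of -0.61 and its relatives Rdx and Msn -0.11 and 0.06. The others were Ank3 (0.50, with probe sets from -0.04 to 0.87), Mmp14 (-0.24) and Nf2 (0.02).

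**Figure D5:**
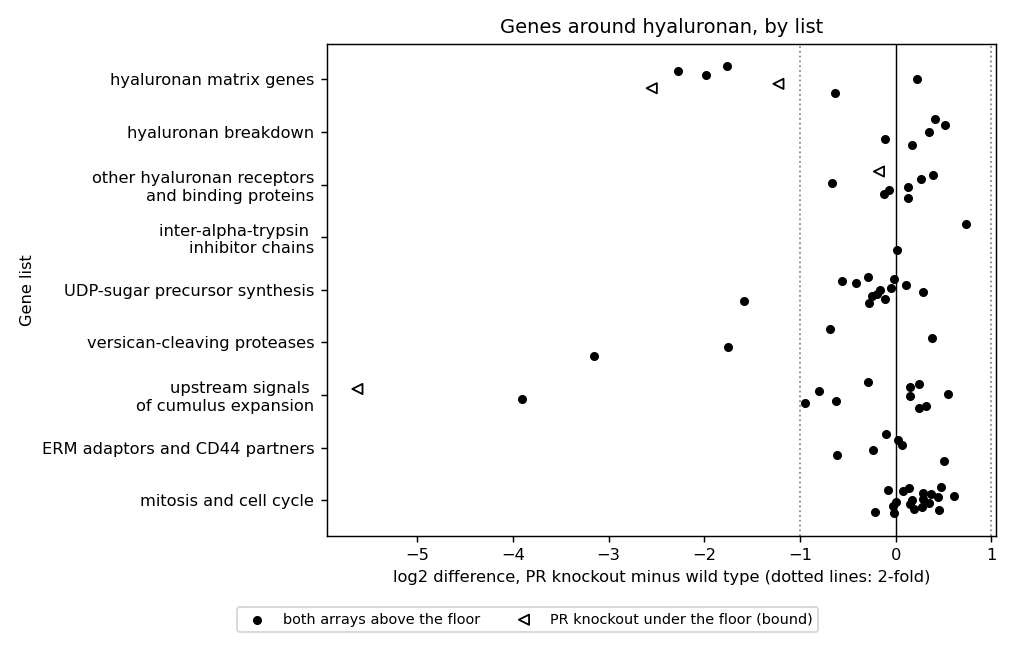
The log2 difference (PR knockout minus wild type) of each measured gene of the hyaluronan matrix and pathway lists, without the cell type markers, with the hyaluronan matrix genes on top, filled circles for genes above the floor on both arrays and open triangles for bounds where the knockout was under the floor. The points left of the dotted 2-fold line belong to the matrix genes, the sugar gene Gfpt2, the versican proteases Adamts1 and Adamts4, and the upstream genes Ereg and Ptgs2.

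Markers of the cells that make or surround the matrix were read on the same arrays. Of 11 granulosa cell markers, 10 were higher and 1 lower in the knockout, with a median log2 difference of 0.61 and summed signals of 25380 in the knockout and 22735 in the wild type. The estrogen receptor gene Esr2 (0.94) and the activin subunit gene Inhbb (0.82) led. Inha (-0.06), Gja1 (0.02) and Nr5a2 (0.09) were close to equal by the probe sets that represent them. Of all genes measured on both arrays, 42.5% were lower in the knockout. The part of granulosa cells in the matrix gene differences was not tested. Of 12 oocyte markers 11 were measured on both arrays, of which 9 were higher and 2 lower, with Nlrp5 (0.56) and Ooep (0.30) farthest from equality, a median of 0.15 and sums over all 12 of 3598 in the knockout and 3229 in the wild type. Gdf9 and Bmp15 stand both in this list and among the upstream signals.

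Vcan is also made by stromal and smooth muscle cells. Of 6 stromal markers, 5 were higher in the knockout, led by Tcf21 (1.46) and Lum (0.84), with a median of 0.28 and sums of 11167 in the knockout and 9011 in the wild type. Of 5 smooth muscle markers, 3 were lower, led by Cnn1 (-0.26) and Tagln (-0.24), with a median of -0.21 and sums of 9259 in the knockout and 9813 in the wild type. All 6 surface epithelium markers were lower in the knockout, with a median of -0.83 and sums of 710 in the knockout and 1256 in the wild type. The keratin genes Krt7 (-1.66), Krt8 (-1.18) and Krt18 (-1.04), 3 of the 6, were at least 2-fold lower. Krt19 (-0.62) and Msln (-0.56) differed less, and Upk3b (-0.14) lay inside the within-gene SD of 0.25. Of all genes measured on both arrays, 1.57% were at least 2-fold lower. With the 70th-percentile floor Krt7 was at -0.14 and the median at -0.55, and Krt18 was at -0.89 with 32 added to each signal. The part of these epithelial markers in the matrix gene differences was not tested. Of the others, 3 of 4 theca markers were lower, led by Star (-0.55) and Cyp17a1 (-0.47), with a median of -0.29 and sums of 28606 in the knockout and 31230 in the wild type. Of 3 luteal markers 1 was lower, Akr1c18 (-2.81), with Ptgfr at 0.21, a median of 0.12 and sums of 8565 in the knockout and 11681 in the wild type. Of 7 endothelial markers 4 were higher, led by Tie1 (0.95), with sums of 1377 in the knockout and 1224 in the wild type. Their median was 0.29, but -0.06 when only probe sets without a suffix were used, and Lyve1 stands both there and among the hyaluronan receptors. No marker was listed at 0 on either array.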

How the data were processed

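RNA of whole ovaries was measured on Affymetrix mouse genome GeneChips, 1 array per genotype, from 100 ng of total RNA per the labels' protocols. The deposited intensities were made by the authors with MAS5 and the Affymetrix Expression Console (version 1), per the submitters' processing notes. The mean signal after trimming 2% at each end was 150.0 on both arrays. MAS5 subtracts mismatch probes, which makes low signals noisy.

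The deposited intensities were log2-transformed (Python 3.11.15, pandas 2.3.3). Of 45037 probe sets other than controls, 34945 carried 1 gene symbol, and for each of 18193 genes the brightest probe set (mean log2 over the arrays) stood for the gene. Signals under an array's median were set to it, so folds against them are bounds. Genes above it on at least 1 array (11316) count as measured. With 1 array per genotype no test was possible, and their number limits the precision. The calculation was tested on simulated data, with known changes put only into genes well above the floor on both arrays. That test did not cover changes at signals near or under the floor, such as those of Has1, Has2 and Ptx3. The members, gene lists and motifs were chosen with earlier results of these data known, the motifs with the promoters in view. Of each list the 4 genes farthest from equality and those at least 2-fold apart were named, of short lists every measured gene, of marker lists the leading 2, and some others after their values were seen. Alternatives changed the scaling, the floor, an offset of 32, the choice of probe set and the threshold.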

Additional observations from a re-analysis of the deposited data

How the results depend on the processing

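Of 7 measured hyaluronan matrix genes 5 passed 2-fold towards lower knockout signal, against 1.72% of all measured genes. The 5 include Has1 and Has2, measured on the wild-type array only, so their direction was built into their selection. Of the 5 genes measured on both arrays, 3 passed. The count of 5 stayed between 4 and 6 under the alternatives tried, except with the 70th-percentile floor, which lies at 128 in the knockout and 121 in the wild type. With that floor it was 2 (Tnfaip6 and Vcan). The count at least 2-fold higher was 0 except with no floor, where it was 1, Has3, at signals under the usual floor. The median log2 difference of the measured members, -1.76, was -0.72 with the 70th-percentile floor and -1.44 with 32 added. Over all measured genes, the counts at least 2-fold lower and higher (195 and 130) were 538 and 740 at 1.5-fold, 70 and 10 at 3-fold, 128 and 35 with the 70th-percentile floor and 1907 and 1447 with no floor, and the higher count was 50 with 32 added. Over the alternatives the log2 difference of Has1 ran from -3.35 to -0.80, of Has2 from -3.32 to -0.84, of Tnfaip6 from -2.37 to -1.59, of Ptx3 from -2.09 to -0.47, of Vcan from -1.83 to -1.68, of Cd44 from -0.71 to -0.58 and of Hmmr from 0.13 to 0.23. Of 567 values of single genes and list medians under the alternatives, 28 moved by more than the within-gene SD of 0.25, and 0 values of at least 2-fold changed sign. The member genes moved more often than the rest: 10 of their values moved and 45 did not. For the other named genes 11 moved and 376 did not, and for list medians 7 moved and 118 did not. The median of the versican protease list, -1.22, was -0.32 with no floor or with 32 added, when Adamts15 and Adamts20 enter it. No paired analysis was possible because each genotype has 1 array.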

Other observations

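The 11 probe sets of these genes that lay under the floor on both arrays belong in no comparison. Their signals ran from 0.604 to 15.2 in the knockout and from 0.852 to 25.7 in the wild type. As deposited, 6 were lower and 5 higher in the knockout, with log2 differences from -3.53 (Cd44, 1443265_at) to 2.52 (Vcan, 1459767_x_at). The 5 Vcan probe sets other than the 3 above the floor on both arrays thus held both directions.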
